A study of Mus musculus with 3 samples.

Results

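Clathrin, its adaptor complexes, the dynamins and the accessory proteins of vesicle endocytosis were described in RNA on tagged ribosomes from the mouse prefrontal cortex. The 39 genes were chosen by name and not by their values, though with earlier results of these data known. All 39 had a row among the 32531 gene symbols of each library. In translating ribosome affinity purification (TRAP), polysomes that carry an EGFP-tagged ribosomal protein L10a are pulled down with antibodies against EGFP, and the RNA they hold is sequenced. All samples came from adult mice of the Slc17a6-TRAP line JX883, in which the tagged protein is placed under the gene of the vesicular glutamate transporter VGLUT2, and none was treated. There were 3 immunopurified libraries in 1 group, each pooled from 3 mice, so a spread between libraries is a spread between pools. No input RNA or untagged control was analysed here. A level is therefore an abundance in the immunopurified RNA, and fewer cells of a type and less RNA per cell cannot be told apart.

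Clathrin-mediated endocytosis retrieves membrane and cargo from the cell surface, and at nerve terminals it recovers synaptic vesicle proteins after release. Adaptor complexes bind cargo and phosphoinositides and recruit clathrin triskelia, BAR-domain proteins bend the bud neck, and dynamin cuts the vesicle free. Synaptojanin then removes phosphates from the membrane lipid, and auxilin with the chaperone Hsc70 strips the coat. Many of these steps are served by paralogs, one of which is enriched in neurons and others of which are made in most tissues.

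Libraries held 8964137 to 12648577 counts over named genes, and the 39 genes together took 0.902%, 0.894% and 0.853% of them in replicates 1, 2 and 3. Markers of glutamatergic neurons summed to 5048 to 5419 CPM (counts scaled to a common library total) per library, with 7 of 7 at 1 CPM or more in every library, among them Slc17a6 itself at 857, 723 and 913 CPM. GABAergic markers summed to 936 to 990 CPM (8 of 8), astrocyte markers to 1326 to 1520 CPM (7 of 7) and oligodendrocyte markers to 427 to 588 CPM (6 of 7). The largest part of the glutamatergic sum was Camk2a, at a mean of 2884 CPM. Slc17a6 averaged 831 CPM and each of the other glutamatergic markers 691 CPM or less. Within the astrocyte sum, Slc1a2 averaged 985 CPM and Aldoc 348 CPM, and each of the others 50.9 CPM or less. Within the GABAergic sum, Gad2 averaged 626 CPM and each of the others 178 CPM or less. Markers of oligodendrocyte precursors summed to 62.5 to 90.1 CPM (5 of 5), microglia markers to 32.2 to 41.0 CPM (6 of 7, C1qa at 0 counts) and endothelial markers to 9.29 to 11.3 CPM (2 of 6). Striatal markers summed to 361, 518 and 579 CPM and olfactory bulb markers to 170, 145 and 64.1 CPM in replicates 1, 2 and 3.

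To compare genes with one another, counts were scaled to the length of the merged exons of each gene and expressed as TPM, which sum to a common total in each library. All 39 genes reached 1 CPM in every library, as did 85.5% of 13546 genes with a length and at least 10 counts in a library. Their median level was 88.1 TPM, and that of the 13546 genes was 19.8 TPM. Of the 39 genes, 37 lay above that overall median, 29 were in the upper 25% of all genes and 14 in the upper 10%. The 2 below the median were the endophilin gene Sh3gl1 and the stonin gene Ston2.

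**Figure D1:**
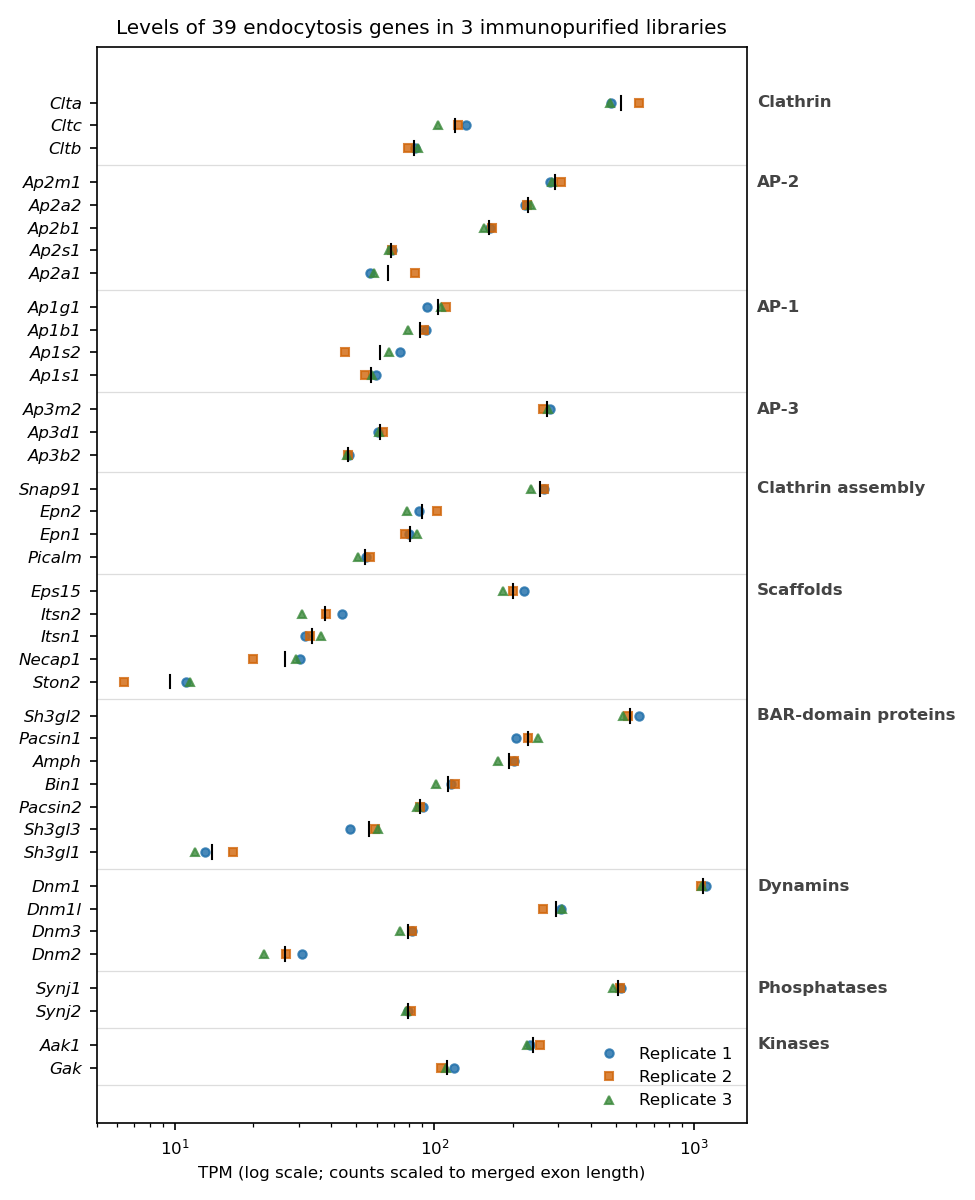
Level of each of the 39 genes in TPM (log scale) in the 3 libraries, grouped by role; points are libraries and black ticks are means. Dnm1 was highest at 1081 TPM and Ston2 lowest at 9.62 TPM, and the dynamin and BAR-domain genes span the widest ranges.

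The clathrin coat is built from triskelia of heavy chains, encoded by Cltc, each with a light chain encoded by Clta or Cltb. Clta (mm10 chromosome 4, 44004452 to 44032846) had 478, 615 and 474 TPM in replicates 1, 2 and 3. Cltb (chromosome 13, 54592401 to 54611344) had 84.0, 79.3 and 86.3 TPM. All 3 values of Clta lay above all 3 of Cltb, by 2.63 ± 0.27 on the log2 scale or 6.20-fold (mean ± SD, n = 3). The ratio was 4.26-fold with the longest transcripts and 2.30-fold in CPM, without scaling to length. Cltc (chromosome 11, 86694351 to 86757565) had 132, 123 and 103 TPM. Its level was 4.35-fold below that of Clta in TPM, and lower in all 3 libraries, and in CPM the difference was a log2 ratio of 0.11. The light chain genes together averaged 605 ± 77.0 TPM.

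AP-2 is the adaptor of the plasma membrane, a complex of an alpha, a beta, a mu and a sigma subunit. The mu gene Ap2m1 (chromosome 16, 20535478 to 20544909), whose product binds tyrosine-based sorting signals, had 280, 307 and 284 TPM. Of its longest transcript, 44.5% has a near-identical copy in transcripts of other genes, chiefly Gm13509, and multiply placed reads were left uncounted, so its level is uncertain. The alpha subunit has 2 genes. Ap2a1 (chromosome 7, 44900373 to 44929496) had 56.3, 84.4 and 58.3 TPM, and Ap2a2 (chromosome 7, 141562173 to 141633011) had 223, 227 and 236 TPM. Ap2a1 was lower in every library, by 1.80 ± 0.33 on the log2 scale or 3.49-fold, and 16.7% of its exonic bases are shared with Fuz on the opposite strand. The beta gene Ap2b1 had 164, 167 and 155 TPM, and the sigma gene Ap2s1 had 68.9, 68.7 and 66.8 TPM with the smallest spread of the complex.

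AP-1 works at the trans-Golgi network and endosomes. Its genes among the 39 were closer together than those of AP-2, with means between 57.0 and 103 TPM. They include no mu gene. AP-1 genes outside the 39, among them the mu gene Ap1m1 at 33.9 TPM, are left out of this range. The gamma gene Ap1g1 averaged 103 ± 8.98 TPM and the beta gene Ap1b1 averaged 87.7 ± 7.42 TPM (SD, n = 3). Of the exonic bases of Ap1g1, 18.7% are shared with Gm17344 on the opposite strand, so that its level is uncertain. Ap2b1, the beta gene of the plasma membrane complex, exceeded Ap1b1 by 1.85-fold in TPM in 3 of 3 libraries. The sigma genes Ap1s2 and Ap1s1 averaged 61.9 ± 14.9 and 57.0 ± 2.83 TPM. Their order in TPM differed between libraries, since Ap1s2 (chromosome X, 163909017 to 163933666) had 73.5, 45.2 and 67.2 TPM, and the log2 ratio of Ap1s2 over Ap1s1 was 0.09 ± 0.30. In CPM, without scaling to length, Ap1s2 was 2.38-fold above Ap1s1 and higher in every library.

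AP-3 sorts cargo to lysosome-related organelles, and a neuronal form with the subunits encoded by Ap3b2 and Ap3m2 serves synaptic vesicle formation from endosomes. The neuronal mu gene Ap3m2 (chromosome 8, 22787354 to 22805622) had 279, 263 and 274 TPM. Its broadly expressed counterpart Ap3m1 had 24.2, 27.7 and 25.1 TPM, a difference of 3.38 ± 0.15 on the log2 scale or 10.4-fold, and 29.8% of the exonic bases of Ap3m1 are shared with Vcl or other genes. The beta pair was different. Ap3b2 had 47.0, 46.4 and 46.3 TPM, against 74.4, 62.7 and 48.4 TPM for Ap3b1, so the log2 ratio was -0.38 ± 0.30 and turned to 0.16 when the longest transcript set the length. The delta gene Ap3d1, shared by both forms, averaged 61.8 ± 1.60 TPM.

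Among adaptor subunits outside the 39 genes, 17 of 19 reached 1 CPM in every library, with a median of 11.4 TPM. The highest were Ap4s1, a small subunit of AP-4, at 267 ± 73.1 TPM, and the sigma subunit gene Ap3s2 at 123 ± 3.15 TPM. The lowest was the epithelial mu subunit gene Ap1m2 at 0.144 ± 0.130 TPM. The mu gene of AP-1 made in most tissues, Ap1m1, stood at 33.9 ± 8.15 TPM.

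Dynamins are GTPases, of which the product of Dnm1 is the main form of nerve terminals, Dnm2 is made in most tissues and Dnm3 is found in brain and testis. Dnm1 (chromosome 2, 32308471 to 32353338) was the highest of the 39 genes, with 1109, 1062 and 1071 TPM, rank 94 of 13546. Dnm2 (chromosome 9, 21424908 to 21507759) had 31.0, 26.8 and 22.02 TPM. Dnm1 exceeded it in every library by 5.33 ± 0.22 on the log2 scale or 40.2-fold. Dnm3 (chromosome 1, 161982453 to 162478034) had 82.2, 81.9 and 74.0 TPM, 13.6-fold below Dnm1 and 2.97-fold above Dnm2.

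The place of Dnm3 depends on its length. Its merged exons span 24452 bases and its longest transcript 7523, and with the longest transcript its mean was 195 TPM, 4.77-fold below Dnm1 and 6.35-fold above Dnm2. The order Dnm1, Dnm3, Dnm2 was the same under both lengths. Dnm1 supplied 91.1% ± 0.61 of the TPM of the 3 genes, or 80.5% with the longest transcripts. The related GTPase gene Dnm1l, whose product Drp1 divides mitochondria and peroxisomes, had 307, 263 and 311 TPM. That was 3.69-fold below Dnm1 and, in each library, above Dnm3 in TPM. In CPM, without scaling to length, Dnm1l averaged 304 and Dnm3 386, and Dnm3 was higher in every library. Receptors that bring Drp1 to mitochondria were also present, with Mff at 128 ± 7.70 TPM, Fis1 at 76.2 ± 14.2 TPM and Mief2 lowest of 4 at 11.2 ± 6.61 TPM.

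The 3 classical dynamin genes share a feature of position. Each holds a hairpin of the miR-199 family in an intron, on the opposite strand, in RefSeq on GRCm38.p6. The hairpin in Dnm1 lies on chromosome 2 at 32318460 to 32318569, that in Dnm2 on chromosome 9 at 21496495 to 21496564, and that in Dnm3 on chromosome 1 at 162217814 to 162217923 (miR-199a-2). Besides this family, introns on the opposite strand hold the hairpin of miR-214 in Dnm3 (162223368 to 162223477) and of miR-3154 in Dnm1 (32318265 to 32318343). Mature sequences are shown 5′ to 3′ with the seed, bases 2 to 8, in capitals, because they show which arms are common to the 3 loci.
mmu-miR-199b-3p (Dnm1): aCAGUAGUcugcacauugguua
mmu-miR-199a-3p (Dnm2 and Dnm3): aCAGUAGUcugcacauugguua
mmu-miR-199a-5p (Dnm2 and Dnm3): cCCAGUGUucagacuaccuguuc
mmu-miR-214-3p (Dnm3): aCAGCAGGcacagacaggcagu
The 3p arm is the same sequence at all 3 loci, and miR-214-3p has another seed. Rows for the precursor genes Mir199a-1 and Mir199b had 0 counts in every library, which allows up to 0.238, 0.335 and 0.237 CPM in replicates 1, 2 and 3. Dnm3os, the long noncoding gene opposite Dnm3 that carries miR-199a-2 and miR-214, had 0, 1 and 5 counts in replicates 1, 2 and 3, against 5053, 3563 and 4545 counts for Dnm3. All of these are counts in RNA held by tagged polysomes, and the level of the precursors or mature sequences in the cells was not measured.

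BAR-domain proteins sense and shape curved membrane. Endophilin A1, the product of Sh3gl2, recruits dynamin and synaptojanin to the bud neck. Sh3gl2 (chromosome 4, 85205126 to 85639195) had 612, 556 and 531 TPM, the second highest mean of the 39 genes. Sh3gl1, the form made in most tissues, had 13.1, 16.7 and 11.99 TPM, and Sh3gl3 had 47.5, 59.1 and 60.8 TPM. Sh3gl2 exceeded Sh3gl1 by 5.31 ± 0.26 on the log2 scale or 39.6-fold and Sh3gl3 by 3.34 ± 0.30 or 10.1-fold, with no overlap between libraries, and made up 89.0% ± 1.74 of the TPM of the 3 endophilin A genes. With the longest transcripts the means of Sh3gl2 and Sh3gl3 were 868 and 90.8 TPM.

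Amphiphysin, encoded by Amph, pairs at nerve terminals with the product of Bin1, which also has forms in muscle and glia. Amph had 202, 203 and 175 TPM and Bin1 116, 120 and 102 TPM, and Amph was 1.72-fold higher in each library (log2 0.78 ± 0.02). Bin1 was lowest in replicate 3, where the sum of oligodendrocyte markers was highest, and the part of those cells in its level was not tested. Pacsin1, the neuronal syndapin, had 205, 229 and 251 TPM and stood 2.57-fold above Pacsin2, the broadly expressed form, at 88.1 ± 2.10 TPM.

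Synaptojanins are the lipid phosphatases that release adaptors from the uncoating vesicle. Synj1 (chromosome 16, 90936092 to 91011308), the form of nerve terminals, had 524, 518 and 488 TPM, and Synj2 had 79.4, 81.0 and 77.6 TPM. Synj1 was 6.39-fold higher, and the log2 ratio of 2.68 varied by 0.04 between libraries (SD, n = 3). Of 11 other genes of phosphoinositide turnover, 11 reached 1 CPM in every library, with a median of 40.6 TPM. They were led by the phosphatase gene Inpp5f at 185 ± 3.04 TPM and the lipid kinase gene Pi4ka at 161 ± 10.4 TPM, and the lowest was Pik3c2a at 14.9 ± 1.83 TPM.

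AP180, encoded by Snap91, and CALM, encoded by Picalm, assemble clathrin and sort the vesicle protein synaptobrevin. Snap91 (chromosome 9, 86765923 to 86880654), the neuronal form, had 265, 264 and 235 TPM, and Picalm had 54.8, 56.7 and 50.7 TPM. The difference was 2.23 ± 0.03 on the log2 scale or 4.68-fold, again in 3 of 3 libraries. The epsins Epn1 and Epn2, which bind ubiquitinated cargo and clathrin, averaged 80.8 ± 4.29 and 89.5 ± 11.8 TPM. In TPM neither was the higher in every library, and the log2 ratio of Epn1 over Epn2 was -0.14 ± 0.26. In CPM, without scaling to length, that ratio was -1.03, and Epn2 was higher in every library.

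Scaffold proteins were the lowest role as a group, with a median of 33.8 TPM. Eps15, which gathers adaptors at the coat rim, stood apart at 221, 200 and 183 TPM. The intersectins Itsn1 and Itsn2, which link the coat to actin regulators, averaged 33.8 ± 2.48 and 37.8 ± 6.60 TPM, and their order differed between libraries. Of the exonic bases of Itsn2, 13.9% are shared with Gm48678 or other genes. With the longest transcripts Itsn1 stood at 42.6 TPM and Itsn2 at 63.8 TPM. Necap1, an AP-2 binding protein of brain, had 30.3, 20.01 and 29.4 TPM. Ston2, the adaptor that sorts synaptotagmin, had 11.1, 6.37 and 11.4 TPM, and both genes were lowest in replicate 2, the library with the fewest counts.

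Kinases of the adaptors phosphorylate the mu subunits. Aak1, which acts on the mu subunit of AP-2, had 234, 254 and 228 TPM, and Gak, a kinase with an auxilin domain, had 119, 106 and 111 TPM. Aak1 was 2.13-fold higher in TPM and 7.08-fold higher in CPM, since its merged exons span 21453 bases and those of Gak 6439.

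**Figure D2:**
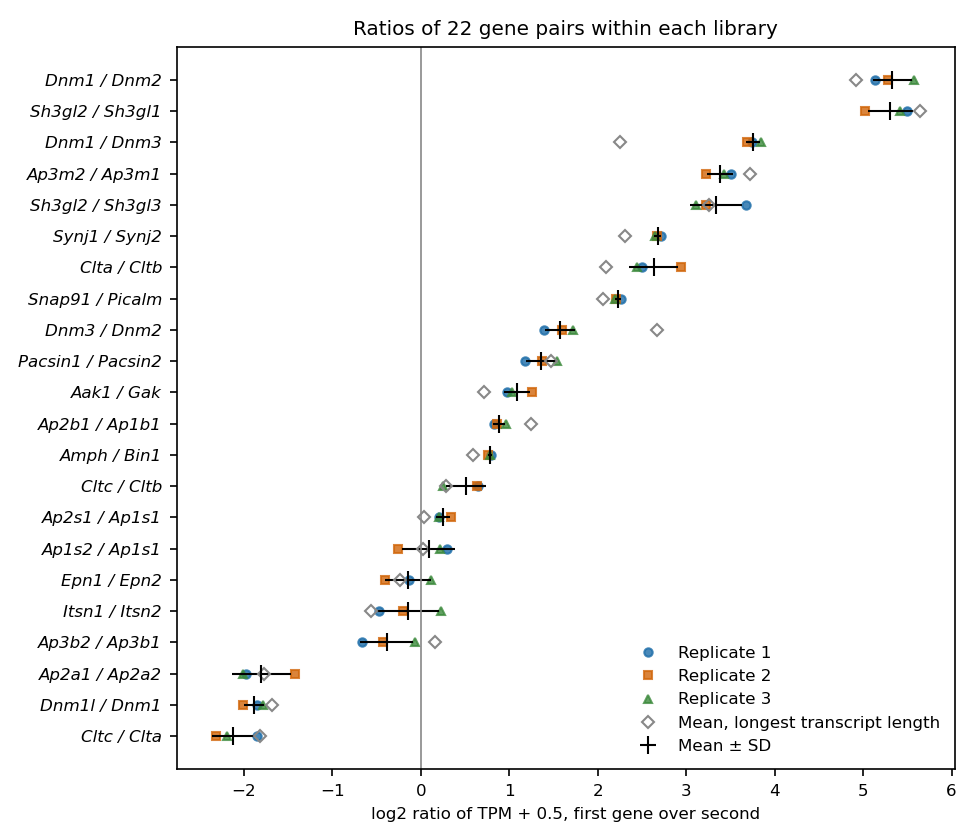
Log2 ratio of TPM + 0.5 within each library for 22 gene pairs, first gene over second; coloured points are libraries, black bars are the mean ± SD (n = 3) and open diamonds are the mean with the longest transcript as length. Dnm1 over Dnm2 (5.33) and Sh3gl2 over Sh3gl1 (5.31) are the widest, and the pairs of Ap1s, Epn and Itsn genes straddle 0.

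Across the 22 pairs, 19 kept one direction in TPM in 3 of 3 libraries, and no share over pairs of other genes is given beside this count. The exact two-sided sign-flip permutation test over libraries gave p = 0.25 for each of these 19 (adjusted p = 0.289 over 22 pairs), which is the smallest p that 3 libraries allow, so no pair could pass 0.05. For Epn1 over Epn2 the exact p was 0.5 (adjusted p = 0.55), and for Ap1s2 over Ap1s1 and Itsn1 over Itsn2 it was 0.75 (adjusted p = 0.75). In CPM, without scaling to length, Dnm1 was 2.92-fold above Dnm3, Dnm3 13.6-fold above Dnm2, Snap91 2.73-fold above Picalm, Ap3m2 6.76-fold above Ap3m1, Sh3gl2 15.3-fold above Sh3gl3 and Ap2b1 3.26-fold above Ap1b1, each more than 1.5 times from its value in TPM. In the order of mean TPM, 13 of the 38 neighbouring genes differed in the same direction in every library and by more than the SD of their difference. Sh3gl2, Clta and Synj1 were not separated in this way (log2 0.13 ± 0.25 and 0.02 ± 0.20), nor were Dnm1l, Ap2m1 and Ap3m2.

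Other endocytosis genes, a list of 35 outside the 39 genes, were set beside these. Of them, 30 reached 1 CPM in every library, and their median was 45.9 TPM. The uncoating pair led the list, with Hspa8, which encodes Hsc70, at 2010 ± 96.9 TPM and Dnajc6, which encodes the neuronal auxilin, at 379 ± 6.38 TPM.

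Other coats were lower or similar in the median. The COPI coat of the Golgi had a median of 69.7 TPM over 9 genes, the COPII coat of the endoplasmic reticulum 62.6 TPM over 11 genes, and the retromer of endosomes 79.4 TPM over 8 genes. Copb2 led COPI at 121 ± 3.62 TPM, followed by Copg1 at 109 ± 14.7 TPM, with Copz2 lowest at 1.34 ± 0.874 TPM. Sar1b and Sar1a, the GTPases that start COPII budding, stood at 302 ± 24.7 and 289 ± 45.3 TPM, and Sec31b had 0 counts. Vps26b led retromer at 244 ± 10.6 TPM, with Vps26a at 173 ± 19.6 TPM and Vps29 lowest at 26.5 ± 3.99 TPM. Clta, Dnm1, Sh3gl2 and Synj1 each had a mean above every gene of these 3 coats, under both lengths. With the longest transcripts the medians were 90.8 TPM for the 39 genes, 68.8 TPM for COPI, 66.7 TPM for COPII and 111 TPM for retromer, so the place of retromer relative to the 39 genes turned.

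Vesicle release genes stood higher than the endocytosis genes. The median of 20 genes of SNARE proteins, synaptic vesicles and active zones was 759 TPM, and 18 of them lay above the median of the 39 genes. Snap25 led at 18259 ± 675 TPM, then Vamp2 at 2599 ± 58.4 TPM, and the priming factor gene Unc13a was lowest at 61.9 ± 3.66 TPM. With merged exons Dnm1 alone of the 39 genes exceeded the vesicle release median, and with the longest transcripts Sh3gl2 did so too, at 868 TPM against a median of 785 TPM.

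**Figure D3:**
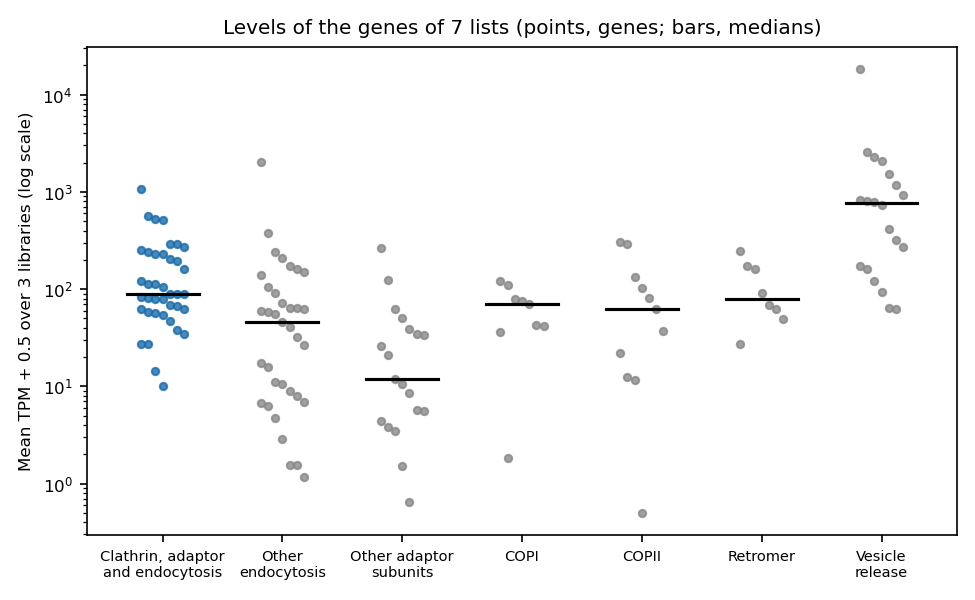
Mean TPM + 0.5 over 3 libraries (log scale) of each gene in 7 lists, with the list median as a bar. The 39 clathrin, adaptor and endocytosis genes (blue) centre on 88.1 TPM, the COPI, COPII and retromer lists on 69.7, 62.6 and 79.4 TPM, and the vesicle release list on 759 TPM.

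Variation between the libraries beyond the trend over all genes was tested with the goodness of fit of an edgeR model with one mean for all libraries. None of the 39 genes was called at an adjusted p of 0.05 (0 of 39), where 36 of 14774 genes tested were called, or 0.244%. At an unadjusted p of 0.05 edgeR likewise called 0 of 39, against 7.22% of all genes. The limma variance test called 0 of 39 at an adjusted p of 0.05 (0.0812% of all genes) and 1 of 39 at an unadjusted p of 0.05 (4.88% of all genes). A share of 0 of 39 at the adjusted threshold is near the background. The median coefficient of variation of the 39 genes in CPM was 7.18%. Over the 7769 genes with a mean between 13.9 and 1128 CPM, the range of the 39 genes, it was 12.1%, but the median level was 144 CPM for the 39 genes and 49.8 CPM for that range.

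The members with the most spread were Ston2, Ap1s2, Ap2a1 and Necap1. In CPM, Ap1s2 had 72.8, 44.5 and 66.3 in replicates 1, 2 and 3 (unadjusted p = 0.0626 and adjusted p = 0.75 in edgeR). It was the 1 gene of the 39 called by limma without adjustment (unadjusted p = 0.0465). Ap2a1 ran the other way, with 48.4, 72.1 and 49.8 CPM (adjusted p = 0.853 in edgeR), and so did Clta, with 172, 220 and 169 CPM (adjusted p = 0.963 in edgeR). At the other end, Ap3b2 had 59.0, 58.0 and 57.9 CPM. Replicate 3 was the lowest library for 21 of the 39 genes in CPM and replicate 1 the highest for 19. The sums of astrocyte, oligodendrocyte and striatal markers given above were lowest in replicate 1 and highest in replicate 3. The sum of olfactory bulb markers ran the other way, highest in replicate 1 and lowest in replicate 3. Of these 5 markers, 5 varied at an unadjusted p of 0.05 in edgeR and 1 at an adjusted p of 0.05, Cdhr1 with 116, 95.9 and 17.3 CPM (adjusted p = 2.28e-15), while Trh had 15.5, 30.6 and 40.0 CPM in replicates 1, 2 and 3. The part of these marker groups in the order of the libraries was not tested.

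**Figure D4:**
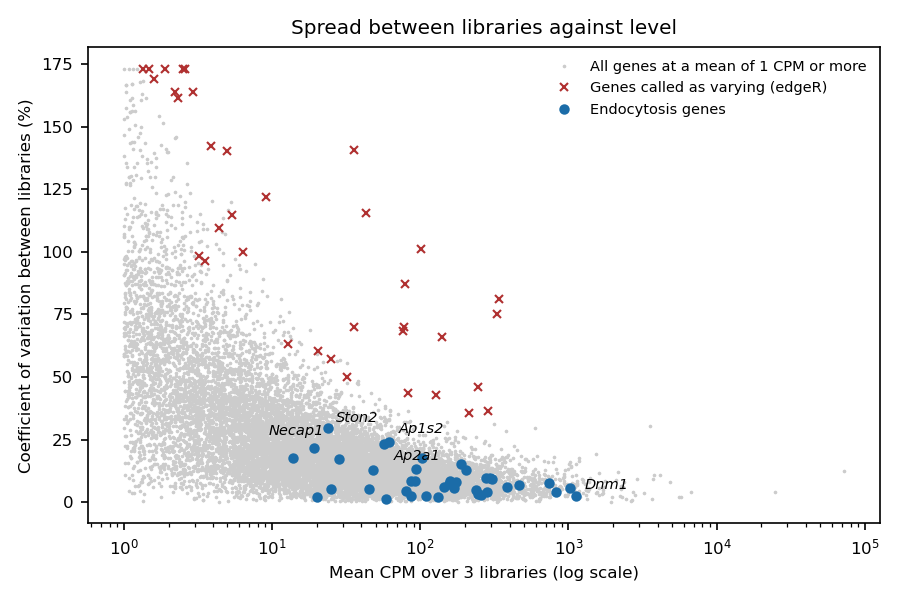
Coefficient of variation between the 3 libraries (%) against mean CPM (log scale) for all tested genes at a mean of 1 CPM or more (grey), the genes called as varying by edgeR (crosses) and the 39 endocytosis genes (blue). The 39 genes lie between 1.06% for Ap3b2 and 29.5% for Ston2, within the grey cloud.

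Promoters, the window of 250 bases before to 50 after each gene start in RefSeq on GRCm38.p6, were found for 37 of the 39 genes, as 46 windows. The palindrome TGACGTCA, the cyclic AMP response element, was present on either strand in 3 of 46 windows (6.52%), against 1.79% of 32851 windows of all genes and 3.10% of 11857 windows of genes at 1 CPM in every library. These were Ap2b1, Cltb and Sh3gl2. The core of the factor NRF1 (GCGC, any base, then TGCGC), searched on both strands, was in 8 of 46 windows (17.4%), against 4.60% of all windows and 9.83% of those of expressed genes. Genes with it were Ap1s1, Ap2a2, Ap2m1, Dnm3, Gak, Pacsin1 and Sh3gl1, and no gene was on both lists. Other motifs searched in the same windows were nearer to or below the share of expressed genes. The GC box (GGGCGG) was in 65.2% of windows against 62.6% for expressed genes. The CCAAT box was in 32.6% against 37.3%, and the TATA box (TATAAA) in 4.35% against 6.91%. The palindrome and the NRF1 core both hold CpG, a C followed by a G. The median observed over expected ratio of CpG was 0.812 in the 46 windows and 0.758 in those of expressed genes. Median GC was 60.5% and 61.3%. The part of base composition in the motif shares was not tested. The 30 bases around each match are shown 5′ to 3′ on the strand of the gene, with the match in capitals, for all 3 genes with the first element and for the AP-2 genes with the second, because they show where the matches lie relative to the RefSeq start.
Ap2b1 (chr11:83302639-83302668, + strand, 47 bases before the RefSeq start): gcgcacccagaTGACGTCAggcggcgagat
Cltb (chr13:54611376-54611405, - strand, 21 bases before the RefSeq start): ccctcggccgcTGACGTCAccgcattcccg
Sh3gl2 (chr4:85205408-85205437, + strand, 37 bases before the RefSeq start): atcacccgcccTGACGTCAgggtgtctctc
Ap2a2 (chr7:141562025-141562054, + strand, 145 bases before the RefSeq start): aggaggtgtaGCGCCTGCGCgctccgcaca
Ap2m1 (chr16:20535448-20535477, + strand, 22 bases before the RefSeq start): ggaggcgagcGCGCAGGCGCagctgcgatc
The gene coordinates given with the levels are those of GENCODE, whose outermost start can differ. The RefSeq start lies 3673 bases inside the GENCODE gene for Ap2b1 and 330 bases inside it for Sh3gl2, so both matches lie within the GENCODE gene. For Cltb, Ap2a2 and Ap2m1 the starts of the 2 annotations lie within 29 bases of each other. The genes with the palindrome spanned a wide range of levels, at 567 TPM for Sh3gl2, 162 TPM for Ap2b1 and 83.2 TPM for Cltb. A match is a description of these letters, and binding was not measured.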

How the data were processed

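For each library the authors deposited 1 table of raw counts by gene symbol. The submitters' processing notes name STAR 2.0.0e, HTSeq and mm10, while annotation, settings and use of strand were not given in the sources used here. Lines that name no gene held 27.2% to 28.3% of all counts, 12.7% to 13.7% being reads placed at more than 1 position, and were left out. CPM used the total of named genes. TPM were computed from the deposited counts and merged exon lengths of GENCODE M21 (mm10), available for 23113 symbols with 89.0% to 90.7% of counts. A count of 0 allows up to 3 counts, which covers counting error only, because PCR copies were not told apart by molecular identifiers. Log2 ratios used a pseudocount of 0.5 TPM.

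Every one of the 39 genes is accounted for, and of other pathway lists the 2 highest and the lowest gene and genes that enter a pair are named, except 1 gene that is not reported here; the rule also covered marker lists, which are given as sums instead; Ap1m1, the named markers and genes named for their spread were chosen after their values were seen. Genes, lists and pairs were chosen with earlier results of these data known. Variation was tested in edgeR 4.0.16 by the fit of a model with one mean (TMM, trended dispersion, chi-square with 2 degrees of freedom, Benjamini-Hochberg over all genes, at least 10 counts in a library), checked on simulated data. Alternatives used limma 3.58.1, DESeq2 1.42.0 size factors, other filters, lengths and pseudocounts, and each replicate left out. The p-values for variation measure the spread of a gene between these pools of mice beyond the trend over all genes, so a gene not called can still vary. Those of the sign-flip test measure how far a pair ratio keeps its direction over the pools. Copies of at least 97% identity over 100 bases were searched with BLAST+ 2.17.0 among GENCODE transcripts. Scripts ran in R 4.3.3 and in Python 3.11.15 with pandas 2.3.3, numpy 2.4.6 and matplotlib 3.10.9.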

Additional observations from a re-analysis of the deposited data

How the results depend on the processing

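Of 22 pair ratios under 8 alternatives each, 169 of 176 values kept the sign of the mean, however near 0. In CPM the log2 ratio was 0.11 for Cltc over Clta, -0.31 for Ap2s1 over Ap1s1, 0.081 for Ap3b2 over Ap3b1 and 0.63 for Itsn1 over Itsn2, each of which has the other sign in TPM, because CPM does not account for length. With the longest transcript as length Ap3b2 over Ap3b1 was 0.16, Ap2s1 over Ap1s1 0.040 and Ap1s2 over Ap1s1 0.024. At that length 18 of 22 pairs kept one direction in 3 of 3 libraries. Without single replicates Ap1s2 over Ap1s1 ranged from -0.017 to 0.26 and Itsn1 over Itsn2 from -0.34 to 0.014. The longest transcript in place of merged exons raised the TPM of Dnm3, Itsn2, Sh3gl3 and Sh3gl2 by more than 1.5 times. Of all genes tested, 36 varied between libraries, against 1097 with a common dispersion, 12 in the limma variance test and 16 to 21 without single replicates. The number of the 39 genes called was 0 under all of these. No paired analysis was possible because the study has 1 group. Depth is lowest in replicate 2, where Necap1 had 130 counts, Ston2 141 and Sh3gl1 149.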
